A study of Mus musculus with 6 samples.

Results

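The genes described here are 9 components of the Hedgehog pathway, chosen by symbol from the 24982 genes listed in each file: the ligand *Shh*, the receptor *Ptch1*, the co-receptor *Boc*, the ligand-binding protein *Hhip*, the signal transducer *Smo*, the inhibitor *Sufu* and the transcription factors *Gli1*, *Gli2* and *Gli3*. RNA-seq compared keratinocytes of neonatal C57BL/6 mouse skin in 2 culture states, with 3 libraries each. The KSFM-Ca2+ cells were derived and kept in a low calcium keratinocyte medium. The DKSFM cells came from KSFM-Ca2+ cells that had been adapted to a defined keratinocyte medium of higher calcium, so medium, calcium and adaptation differed together and cannot be told apart. No other treatment was given to either group. What a replicate was is not stated, so the p-values measure the spread between these libraries, which may be technical.

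Hedgehog ligands are lipid-modified proteins that bind Ptch1 on the receiving cell. Binding relieves the inhibition of Smo in the primary cilium, Sufu then releases the Gli proteins, and full-length Gli activators replace the shortened repressor forms. In skin, Shh made in the growing hair follicle acts on epithelium and dermis, and Gli activity in keratinocytes is known for its part in hair growth and in basal cell carcinoma.

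Each value is the mean read coverage of a gene per base, scaled here to the library's total by a trimmed mean of M values and called normalized coverage. Summed over all genes, the listed coverage was 1601676, 1238411 and 1057750 in KSFM-Ca2+ replicates 1 to 3 and 1174348, 1239438 and 1170675 in DKSFM replicates 1 to 3. Values were listed to 1 decimal, so 0.1 is the smallest step and limits the precision of the low genes. Coverage is given per base, and levels of different genes are set side by side below on that scale. How coverage was derived is not stated, so orders, shares and ratios between genes describe the coverage values only. The labelled cell type was checked first. The 8 keratinocyte markers were all detected, with *Krt14* the most abundant, and their summed normalized coverage was 20610, 20960 and 20580 in the KSFM-Ca2+ libraries and 49700, 45980 and 50170 in the DKSFM libraries, with 4 of the 8 higher in DKSFM cells past the thresholds used for all genes, beside 13.2% of all tested genes. *Itgb4*, an integrin of the basal layer, went the other way and fell by 0.74 ± 0.04 on the log2 scale (SE, limma adjusted p = 4.43e-07), short of 2-fold. Of the hair follicle matrix markers, *Lef1*, *Msx2*, *Shh* and *Wnt10b* were listed at 0 in every library.

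Of the 9 Hedgehog members, 3 were higher in DKSFM cells past both thresholds, 2-fold and an adjusted p of 0.01, where 13.2% of all 12409 tested genes were. These were *Boc*, *Gli2* and *Gli1*. Of the 9 members 7 were tested, having reached the filter of 0.5 in at least 3 libraries. *Boc* and *Gli1* passed this filter through the DKSFM libraries alone, so the count is a description only. *Smo* and *Sufu* were also higher past the adjusted p but by less than 2-fold, *Ptch1* and *Gli3* did not pass, and *Shh* and *Hhip* were listed at 0 in all 6 libraries. No member was lower by limma at either threshold, and 0 members were lower at an unadjusted p under 0.05, whereas 10.5% of tested genes were lower past both thresholds. At any size, 5 members were higher past the adjusted p, beside 35.5% of tested genes higher and 37.1% lower. In bulk RNA, fewer cells that express a gene and less RNA per cell cannot be told apart.

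**Figure D1:**
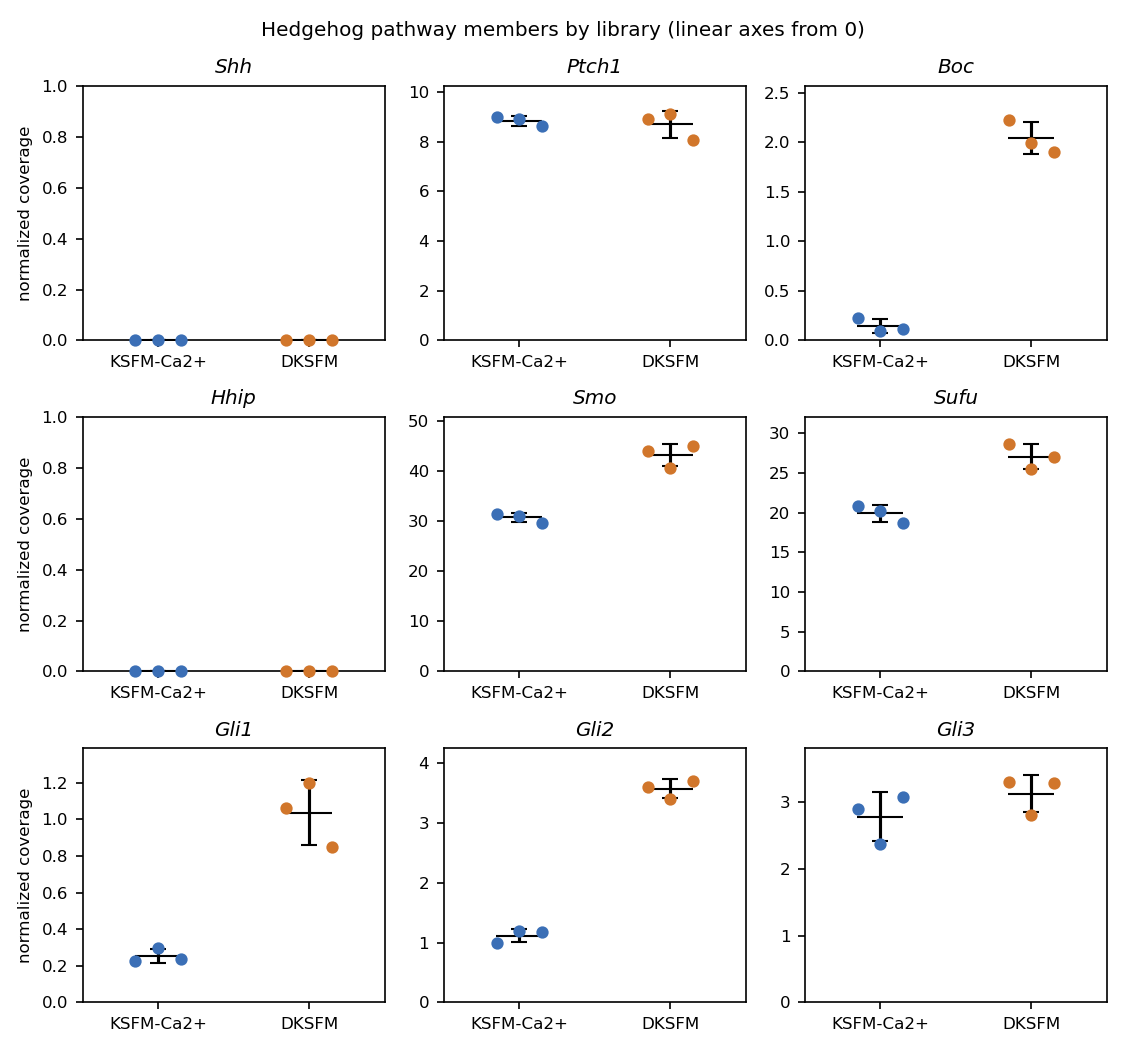
Normalized coverage (vertical axes, linear from 0) of the 9 Hedgehog members in KSFM-Ca2+ and DKSFM libraries. Points are libraries, and bars are the mean ± SD of 3 libraries; *Boc*, *Gli1*, *Gli2*, *Smo* and *Sufu* separate the groups, *Ptch1* and *Gli3* overlap, and *Shh* and *Hhip* lie at 0.

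The ligand genes were listed at or near 0 in these libraries. *Shh* (chromosome 5 from 28456815 to 28467256 in GRCm38) was listed at 0 in all 6. *Ihh*, the ligand known from cartilage, was listed at 0.1 in 3 libraries and at 0 in the other 3. *Dhh*, the ligand known from testis and nerve sheath, was listed at 0 in every KSFM-Ca2+ library and at 0.3, 0 and 0.1 in the DKSFM libraries, and it shares 546 exon bases with *Rhebl1* on the same strand, so its reads are uncertain. None of the 3 ligand genes passed the filter, which kept genes that reached 0.5 in 3 or more libraries. A listed 0 need not mean that a gene is not expressed: *Mks1*, a broadly used cilium gene noted after its values were seen, was also listed at 0 in all 6 libraries, while its partners *B9d1* and *B9d2* had means of 89.2 and 10.9 in KSFM-Ca2+ and 45.2 and 24.8 in DKSFM cells.

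Genes that modify and release the ligand were detected in part. *Hhat*, the acyltransferase that attaches palmitate to Hedgehog proteins, had 0.152, 0.297 and 0.118 in KSFM-Ca2+ libraries and 1.06, 0.999 and 0.742 in DKSFM libraries (log2 fold change 1.87 ± 0.30 (SE), limma adjusted p = 0.00047). *Scube2*, a secreted protein that helps to free the lipid-modified ligand, had 0.152, 0.0989 and 0.118 against 1.91, 2.20 and 1.80 (3.22 ± 0.21, adjusted p = 1.87e-06 by limma). In both genes every DKSFM library was above every KSFM-Ca2+ library, where 83.3% of all tested genes had groups without overlap in either direction. The KSFM-Ca2+ values of both genes lay within a few rounding steps of 0. *Disp1*, the transporter that exports the ligand, had 2.59, 2.27 and 2.83 against 1.80, 1.70 and 1.70, and fell by 0.54 ± 0.12 on the log2 scale (limma adjusted p = 0.00428), short of 2-fold. Of the 9 ligand and release genes, 2 were higher past both thresholds and 0 lower, 1 was lower at an unadjusted p under 0.05, and 6 were not tested. Both higher genes passed the filter through the DKSFM libraries alone, so the count, beside 13.2% of all tested genes higher, is a description only. *Hhatl*, *Disp2*, *Scube1* and *Scube3* were listed at no more than 0.2 in any library.

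At the receptor, *Ptch1* differed by less than its spread, while *Boc* showed the largest change of the members. *Ptch1* (chromosome 13 from 63508328 to 63573598), which holds Smo inactive and is itself a textbook target of Gli factors, had 8.99, 8.90 and 8.61 in KSFM-Ca2+ and 8.92, 9.09 and 8.06 in DKSFM libraries. The groups overlapped, with a log2 fold change of -0.025 (95% interval -0.19 to 0.14, limma adjusted p = 0.749). It became 0.027 without DKSFM replicate 3, the library with the lowest value. *Hhip* (chromosome 8 from 79965851 to 80058006), a membrane protein that binds the ligand and is likewise a textbook Gli target, was listed at 0 throughout.

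*Boc* (chromosome 16 from 44485049 to 44558897), an immunoglobulin superfamily co-receptor that presents the ligand to Ptch1, had 0.229, 0.0989 and 0.118 in KSFM-Ca2+ replicates 1 to 3 and 2.23, 1.999 and 1.91 in DKSFM replicates 1 to 3. All 3 DKSFM libraries were above all KSFM-Ca2+ libraries, which were listed at 0.3, 0.1 and 0.1, that is 1 to 3 rounding steps. The mean was 13.8-fold higher in DKSFM cells, and rounding alone would allow 10.1 to 21.1-fold. The fitted log2 fold change was 3.14 ± 0.25 (SE; 95% interval 2.57 to 3.71; limma adjusted p = 5.94e-06), on a log2(normalized coverage + 0.1) scale that understates changes of low genes. It was 1.98 with a pseudocount of 0.5 and 1.41 with a pseudocount of 1, still past both thresholds. *Boc* and *Gli1* passed the filter through the DKSFM libraries alone, so their inclusion among the tested genes depended on the group in which they were high.

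The partners of *Boc* did not move in 1 direction. *Gas1*, a membrane-anchored co-receptor, had 7.62, 6.92 and 5.07 against 53.4, 49.96 and 52.5 (log2 fold change 2.99 ± 0.13, limma adjusted p = 2.24e-07) and carried the most coverage of the co-receptors in every library; it shares 589 exon bases with a noncoding gene on the opposite strand. *Cdon*, the close relative of *Boc*, had 1.68, 1.88 and 1.77 against 1.06, 0.999 and 0.954 and fell by 0.76 ± 0.14 on the log2 scale (limma adjusted p = 0.000968), short of 2-fold. Thus *Boc* was below *Cdon* in the KSFM-Ca2+ libraries and above it in the DKSFM libraries. As a share of the summed coverage of *Boc*, *Cdon* and *Gas1*, *Cdon* made up 17.6%, 21.1% and 25.4% in the KSFM-Ca2+ libraries and 1.87%, 1.89% and 1.72% in the DKSFM libraries. *Gas1* made up 76.9% ± 3.64 (SD, n = 3) and 94.5% ± 0.332 (SD, n = 3). The summed coverage was 8.46 ± 1.34 and 55.0 ± 1.89 (SD, n = 3 each).

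The 3 glypicans of the list, heparan sulfate proteoglycans of which *Gpc3* is known to compete for the ligand and *Gpc4* and *Gpc6* are relatives, were higher in DKSFM cells. *Gpc4* had 9.15, 9.10 and 9.44 against 31.5, 35.2 and 31.8 (log2 fold change 1.82 ± 0.06, limma adjusted p = 3.89e-08). *Gpc3* had 0.152, 0.0989 and 0.236 against 1.70, 1.90 and 1.27 (2.73 ± 0.27, adjusted p = 2.61e-05 by limma). *Gpc6* was listed at 0 in every KSFM-Ca2+ library and had 5.20, 5.30 and 5.62 in DKSFM libraries (limma adjusted p = 3.47e-08), so no fold is given. The groups did not overlap for any of these 3 genes, as for 83.3% of all tested genes. In all, 4 of the 7 reception genes were higher past both thresholds and 0 were lower, with 1 (*Cdon*) lower at an unadjusted p under 0.05, beside 13.2% and 10.5% of all tested genes. *Gpc3* and *Gpc6* passed the filter through the DKSFM libraries alone. *Lrp2*, an endocytic receptor, was listed at 0.

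*Smo* (chromosome 6 from 29735503 to 29761365), the 7-pass membrane protein that passes the signal into the cell, had the most coverage of the members in both groups. It had 31.4, 31.1 and 29.7 in KSFM-Ca2+ libraries and 44.0, 40.7 and 45.0 in DKSFM libraries, without overlap (log2 fold change 0.49 ± 0.05, limma adjusted p = 2.95e-05). *Sufu* (chromosome 19 from 46396896 to 46488804), which binds Gli proteins in the cytoplasm and restrains them, had 20.8, 20.3 and 18.8 against 28.7, 25.5 and 27.0, again without overlap (0.44 ± 0.06, adjusted p = 0.000226 by limma). The transducer and the inhibitor were thus both higher, by 1.40-fold and 1.36-fold. The ratio of *Smo* to *Ptch1* coverage was 3.49, 3.50 and 3.45 in the KSFM-Ca2+ libraries and 4.93, 4.47 and 5.58 in the DKSFM libraries.

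Of 15 genes between Smo and the Gli proteins, 2 were higher past both thresholds and 0 lower, beside 13.2% and 10.5% of all tested genes. Past the adjusted p at any size, 6 were higher and 4 lower, beside 35.5% and 37.1%, and at an unadjusted p under 0.05 the counts were 6 and 6. *Mgrn1*, a ubiquitin ligase known to act on Smo, had 34.2, 33.0 and 30.8 against 70.7, 65.1 and 70.5 (log2 fold change 1.07 ± 0.05, limma adjusted p = 3.95e-07). *Arrb1*, a beta-arrestin, was listed at 0 in KSFM-Ca2+ libraries and had 0.743, 0.899 and 0.530 in DKSFM libraries, through which alone it passed the filter. *Kif7*, the ciliary kinesin that organizes Gli regulation at the cilium tip, was chosen after its values were seen and had a mean of 9.02 ± 0.883 against 5.06 ± 0.0594 (SD, n = 3 each), a difference past the adjusted p but not 2-fold. The median log2 fold change of the 15 genes was 0.09, beside 0.00 for all tested genes. Of 18 kinases and turnover factors of the Gli proteins, *Spop* alone passed both thresholds. This adaptor of a ubiquitin ligase for Gli2 and Gli3 had 109.5, 103.8 and 101.6 in KSFM-Ca2+ libraries and 220.1, 237.9 and 214.0 in DKSFM libraries (log2 fold change 1.09 ± 0.05, limma adjusted p = 1.82e-07). Of these 18 genes, 1 was higher and 0 were lower by limma past both thresholds, beside 13.2% and 10.5% of all tested genes. Past the adjusted p at any size, 5 were higher and 8 lower, beside 35.5% and 37.1%, and at an unadjusted p under 0.05 the counts were 6 and 9, with a median log2 fold change of -0.12.

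Among the transcription factors, *Gli1* and *Gli2* were higher in DKSFM cells and *Gli3* overlapped between the groups. *Gli2* (chromosome 1 from 118834132 to 119053619), known as the main activator of the pathway in skin, had 0.991, 1.19 and 1.18 in KSFM-Ca2+ libraries and 3.61, 3.40 and 3.71 in DKSFM libraries. The DKSFM libraries all lay above the others, with a 3.19-fold higher mean (3.01 to 3.39 by rounding) and a log2 fold change of 1.59 ± 0.12 (limma adjusted p = 6.09e-06). *Gli1* (chromosome 10 from 127329882 to 127341974), an activator and itself a target of Gli factors, had 0.229, 0.297 and 0.236 against 1.06, 1.20 and 0.848. Here too every DKSFM library was higher, and the mean was 4.08-fold higher (3.25 to 5.31 by rounding), with a log2 fold change of 1.68 ± 0.22 (limma adjusted p = 0.000161) that became 0.70 and missed 2-fold with a pseudocount of 1. *Gli1* stayed a low gene: only 3.21% of tested genes had a lower mean in KSFM-Ca2+ cells and 7.16% in DKSFM cells. It shares 62 exon bases with *Arhgap9* on the opposite strand, which was listed at no more than 0.1 in any library, and 265 with an antisense transcript. The libraries kept strand and were aligned with a strand setting, and whether the coverage itself was computed by strand is not stated.

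*Gli3* (chromosome 13 from 15463235 to 15730026), known chiefly as the repressor of the pathway, had 2.90, 2.37 and 3.07 in KSFM-Ca2+ libraries and 3.29, 2.80 and 3.29 in DKSFM libraries. The groups overlapped, and the log2 fold change of 0.17 had a 95% interval from -0.14 to 0.47 (limma adjusted p = 0.266). It was 0.062 without KSFM-Ca2+ replicate 2, the library with the lowest value, and 0.022 in the libraries marked combined. With *Gli3* within its spread and its relatives higher, the make-up of the summed *Gli* coverage differed. *Gli3* made up 70.4%, 61.5% and 68.4% of the summed *Gli* coverage in KSFM-Ca2+ replicates 1 to 3 and 41.3%, 37.8% and 41.9% in DKSFM replicates 1 to 3. The share of *Gli2* was 24.1%, 30.8% and 26.3% against 45.3%, 45.9% and 47.3%. The share of *Gli1* was 5.56%, 7.69% and 5.26% against 13.3%, 16.2% and 10.8%. No share overlapped between the groups, and the summed coverage was 4.15 ± 0.315 against 7.73 ± 0.2997 (SD, n = 3 each). The shares were not tested.

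**Figure D2:**
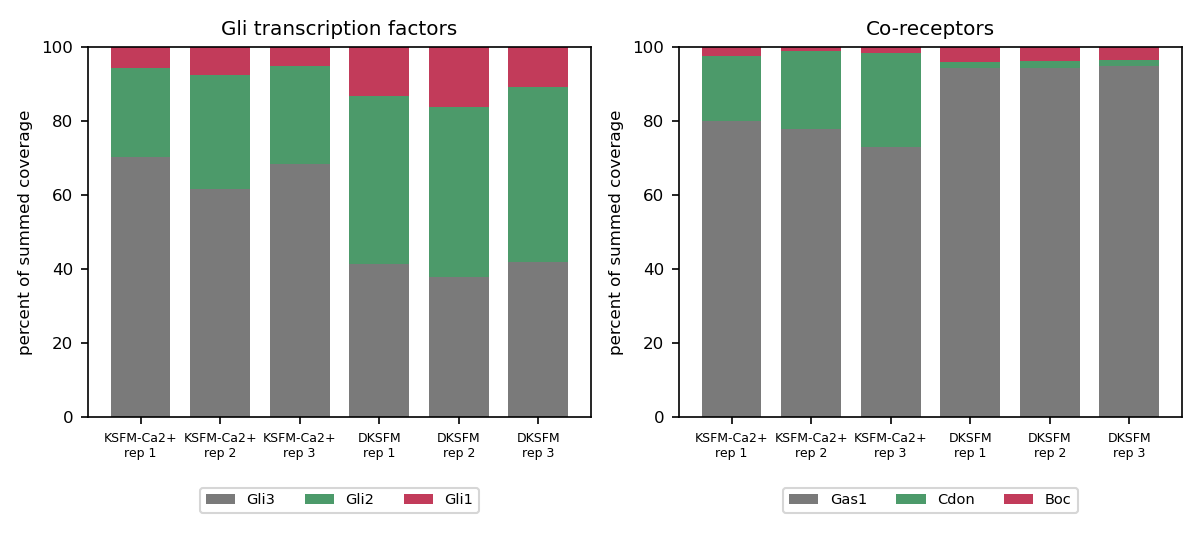
Share of summed coverage in percent (vertical axes) taken by *Gli1*, *Gli2* and *Gli3* (left) and by *Boc*, *Cdon* and *Gas1* (right) in each of the 6 libraries. *Gli3* takes 61.5% or more in each KSFM-Ca2+ library and 41.9% or less in each DKSFM library, and *Cdon* nearly vanishes beside *Gas1* in the DKSFM libraries.

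In order of level, the KSFM-Ca2+ libraries gave *Smo*, *Sufu*, *Ptch1*, *Gli3*, *Gli2*, *Gli1* and *Boc*, followed by *Hhip* and *Shh* at 0. The last pair above 0 could not be ordered, since *Gli1* and *Boc* were listed at the same value in 1 of the 3 libraries. In the DKSFM libraries the order was *Smo*, *Sufu*, *Ptch1*, *Gli2*, *Gli3*, *Boc* and *Gli1*, and neighbours above 0 did not overlap. In coverage per base, *Gli2* was therefore below *Gli3* in all 3 KSFM-Ca2+ libraries and above it in all 3 DKSFM libraries. The order between genes was not tested.

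**Figure D3:**
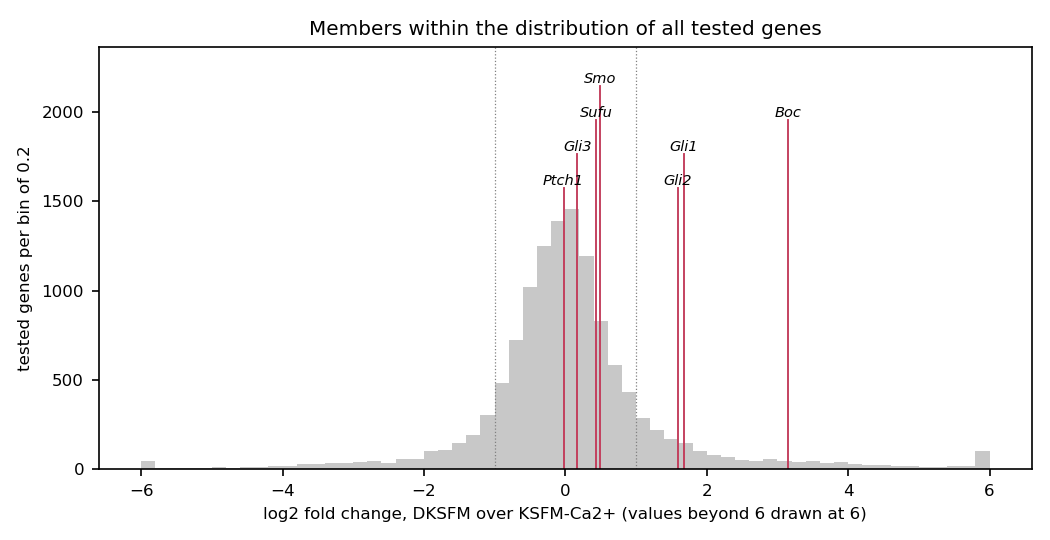
Number of tested genes (vertical axis) by log2 fold change of DKSFM over KSFM-Ca2+ (horizontal axis, bins of 0.2), with the 7 tested Hedgehog members as vertical lines. Dotted lines mark 2-fold; *Boc*, *Gli1* and *Gli2* lie beyond it on the higher side, and *Ptch1* and *Gli3* lie near the centre.

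Set beside all tested genes, the separation of groups was common. Of the 7 tested members, 5 had groups without overlap, and 83.3% of all tested genes did. The members' median log2 fold change was 0.49 over the 7 tested members, beside 0.00 for all tested genes, and 2 of the 7 had entered through the DKSFM libraries. The genes whose pattern over the 6 libraries was most like that of *Gli1*, among genes whose higher group averaged 10 or more, were *Cenpx*, *Xpa* and *Stradb*. For *Gli2* they were *Hexdc*, *Mlf2* and *Nucb1*. Pearson's r was 0.999 for each of the *Gli1* genes and at least 0.999 for each of the *Gli2* genes. The libraries form separate groups, so 3015 genes reached an r of 0.95 with *Gli1* and 3268 with *Gli2*, and these values are a description of shape only.

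The members are spread over 8 chromosomes, with *Gli3* and *Ptch1* both on chromosome 13. Tested genes within 10 Mb of *Gli2* had a median log2 fold change of -0.56 (30 genes), and *Gli2* was higher against them. The same median was 0.29 around *Gli1* (102 genes) and -0.03 around *Boc* (73 genes). Around *Smo* it was 0.24 (76 genes), in the same direction as *Smo* itself and smaller, and around *Gli3* it was -0.33 (75 genes), so that *Gli3* stood 0.50 above its neighbours, more than its own 0.17.

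Upstream sequences are shown for *Gli2*, which changed, and for *Ptch1*, which did not pass, to set a pair of promoters of the same pathway side by side. RefSeq promoter entries (GRCm38.p6) matched 6 of the 9 members, and *Gli1*, *Boc* and *Shh* had none. The 250 bases before the start were searched on both strands for GACCACCCA, the 9-base Gli consensus, and for its inner ACCACCC, which every match of the longer motif also holds. The sequences are 5′ to 3′ on the gene's strand, from chr1:119053620-119053869 (minus strand) for *Gli2* and chr13:63565736-63565985 (minus strand) for *Ptch1*, and capitals mark the inner motif on either strand. Neither stretch overlapped an annotated exon, and the *Ptch1* stretch lies within the gene, before the start of a shorter transcript.
Gli2: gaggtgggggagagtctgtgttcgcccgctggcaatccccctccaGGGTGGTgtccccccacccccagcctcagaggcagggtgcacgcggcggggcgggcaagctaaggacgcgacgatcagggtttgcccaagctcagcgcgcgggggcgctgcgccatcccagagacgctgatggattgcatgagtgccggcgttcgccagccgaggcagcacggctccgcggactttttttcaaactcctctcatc
Ptch1: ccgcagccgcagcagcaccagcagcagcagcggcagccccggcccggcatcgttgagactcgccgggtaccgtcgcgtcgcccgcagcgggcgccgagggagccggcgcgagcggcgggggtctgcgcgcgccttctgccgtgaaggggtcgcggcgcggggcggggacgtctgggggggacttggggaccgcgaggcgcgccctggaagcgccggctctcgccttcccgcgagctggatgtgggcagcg
The longer motif was in none of the 6 windows and in 0.225% of all 32851 windows of this length. The inner motif was in the *Gli2* window alone of the 6, on the strand opposite to the gene and ending 199 bases before the start, and in 3.92% of all windows. These are letter matches in a short window only. The GC content was 67.2% in the *Gli2* window and 78.4% in the *Ptch1* window, beside a median of 52.4% over all windows, and the number of CG pairs was 22 and 41 beside a median of 6.

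Genes that are known to respond to Gli factors in 1 tissue or another moved both ways. Of 19 such genes outside the members, 15 were tested, 6 were higher and 3 were lower past both thresholds. Among all tested genes 13.2% were higher and 10.5% lower. The median log2 fold change of the list was 0.79. The largest increase was in *Sfrp1*, a secreted Wnt antagonist, with 0.457, 0.396 and 0.354 in KSFM-Ca2+ libraries and 9.34, 9.49 and 10.1 in DKSFM libraries (log2 fold change 4.28 ± 0.12, limma adjusted p = 2.35e-08). *Foxe1*, a forkhead factor of the hair follicle, had 0.0762, 0.0989 and 0 against 0.956, 0.999 and 1.17 (2.90 ± 0.33, adjusted p = 5.65e-05 by limma). *Bmp4*, a signalling ligand, had 0.686, 0.791 and 0.826 against 2.44, 2.30 and 2.76. Each of the 3 genes was higher in every DKSFM library, where 83.3% of all tested genes had groups without overlap in either direction. Their KSFM-Ca2+ values were under 1, and *Sfrp1* and *Foxe1* passed the filter through the DKSFM libraries alone. Abundant genes were among them as well: *Ccnd2*, a G1 cyclin, had 90.8, 87.3 and 96.0 against 263.8, 252.9 and 280.8 (1.54 ± 0.05, limma adjusted p = 3.84e-08), and *Nr2f2*, a nuclear receptor, had a mean of 20.1 ± 1.75 against 50.3 ± 2.16 (SD, n = 3 each). *Krt17*, a keratin of hair follicles and stressed epidermis and the sixth of these genes by size, was named after its values were seen, with a mean of 880.6 ± 74.0 against 1875 ± 197.7 (SD, n = 3 each).

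The lower targets included *Ccnd1*, the other G1 cyclin of the list, with 757.5, 749.9 and 770.9 in KSFM-Ca2+ libraries and 170.6, 171.5 and 181.7 in DKSFM libraries. It fell by 2.12 ± 0.03 on the log2 scale (limma adjusted p = 1.08e-09), the opposite direction to *Ccnd2*. *Foxl1*, a forkhead factor known as a target in gut mesenchyme, had 2.29, 2.47 and 2.12 and was listed at 0.1 in each DKSFM library. *Nr2f1*, the relative of *Nr2f2*, had 2.74, 3.06 and 2.60 and was listed at 0 in each DKSFM library, so that these relatives differed in opposite directions. *Foxl1* and *Nr2f1* passed the filter through the KSFM-Ca2+ libraries alone. *Mycn*, *Foxf1*, *Foxf2* and *Snai1*, also named after their values were seen, stayed under the filter. The textbook targets that are members were likewise unlike one another, with *Gli1* higher, *Ptch1* within its spread, and *Hhip* at 0.

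**Figure D4:**
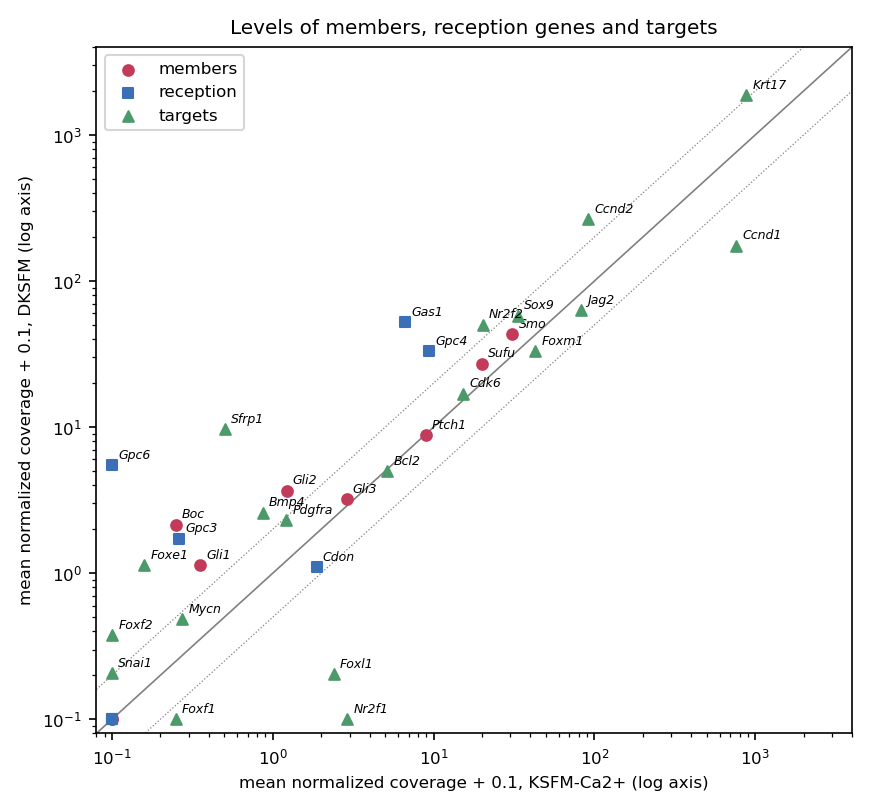
Mean normalized coverage plus 0.1 in KSFM-Ca2+ (horizontal) and DKSFM (vertical) cells, both on log axes, for members, reception genes and targets. The solid line marks equal levels and the dotted lines 2-fold; *Gpc6*, *Gas1*, *Boc* and *Sfrp1* lie far above it, *Ccnd1*, *Foxl1* and *Nr2f1* below, and *Ptch1* on it.

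Because the pathway runs through the primary cilium, 46 genes of the cilium were counted as well. Of these, 44 were tested, 4 were higher and 2 lower past both thresholds, beside 13.2% and 10.5% of all tested genes, and the median log2 fold change was 0.07. The higher genes were *Tctn2* of the transition zone (1.82 ± 0.07), *Bbs1* of the BBSome (1.78 ± 0.30), *Ift122* of the retrograde transport complex (1.54 ± 0.05) and *B9d2*, a further transition zone gene (1.18 ± 0.08), as log2 fold changes with SE, and *Bbs1* passed the filter through the DKSFM libraries alone. The lower genes were *Cep164*, a distal appendage gene that fell by 1.34 ± 0.08, and *Ttc21b*, a retrograde transport gene that fell by 1.02 ± 0.05. By limma all 6 had an adjusted p of 0.000712 or less. The 6 lists outside the members held 114 genes, of which 100 were tested and 14 were not. Of these 100, 19 were higher and 5 lower past both thresholds, with a median log2 fold change of 0.08. Among the higher ones, *Hhat*, *Scube2*, *Gpc3*, *Gpc6*, *Arrb1*, *Sfrp1*, *Foxe1* and *Bbs1* passed the filter through the DKSFM libraries alone. Among the lower ones, *Foxl1* and *Nr2f1* passed it through the KSFM-Ca2+ libraries alone. The pooled counts, beside 13.2% and 10.5% of all tested genes, are therefore a description only.

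**Figure D5:**
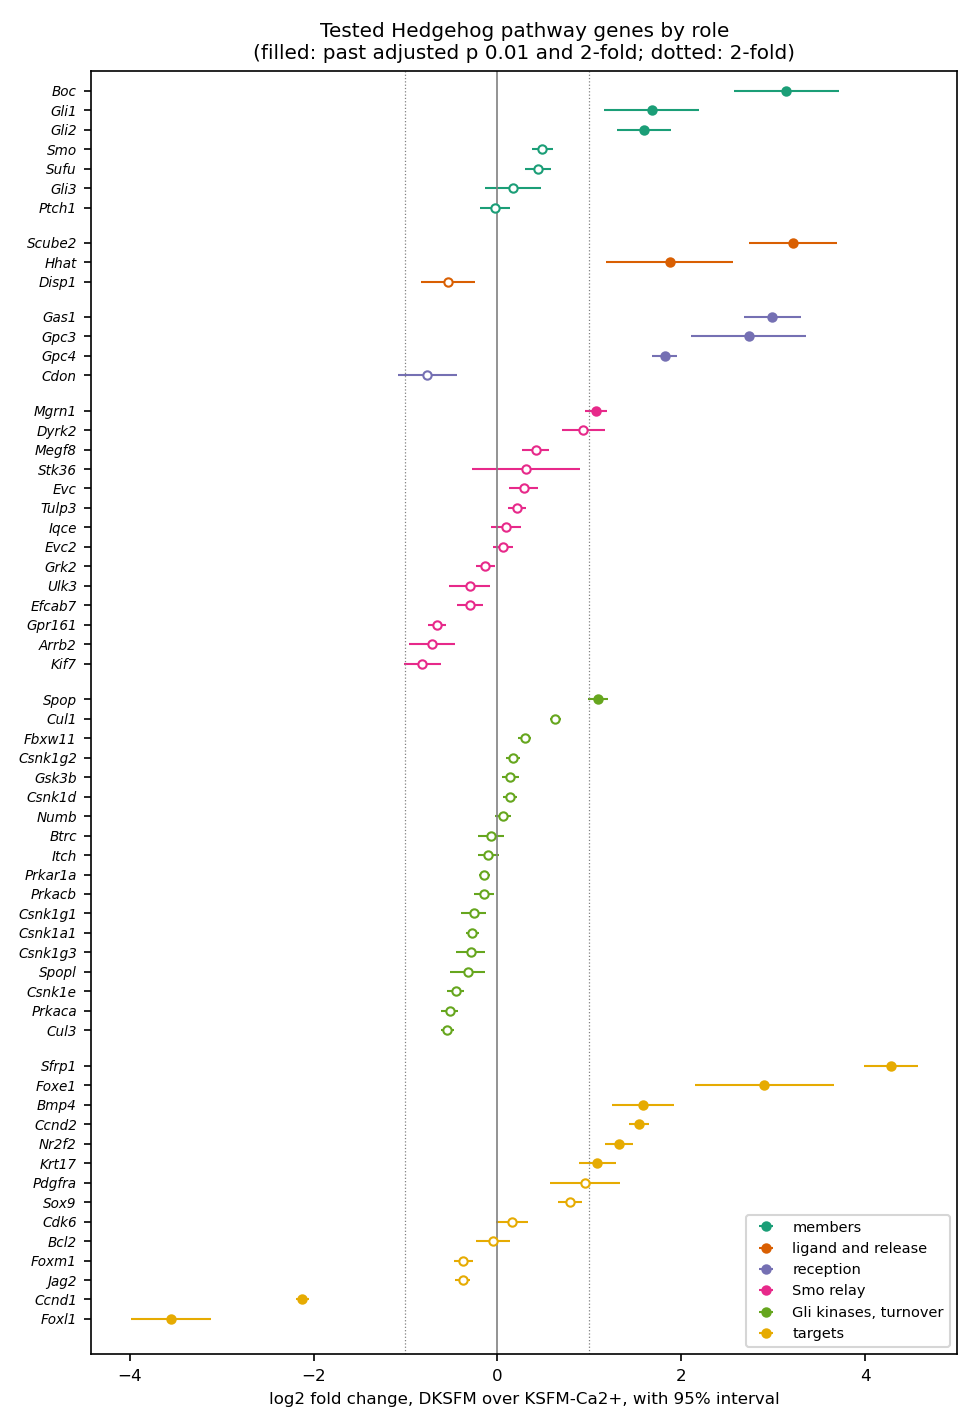
Log2 fold change of DKSFM over KSFM-Ca2+ (horizontal axis) with 95% interval for tested members and other pathway genes, by role. Filled points passed an adjusted p of 0.01 and 2-fold, and lie on both sides. The cilium genes are left out, as are *Gpc6*, *Arrb1* and *Nr2f1*, listed at 0 in all libraries of a group. Of the filled points, *Boc*, *Gli1*, *Hhat*, *Scube2*, *Gpc3*, *Sfrp1* and *Foxe1* passed the filter through the DKSFM libraries alone. *Foxl1* passed it through the KSFM-Ca2+ libraries alone.

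Markers of other skin cells were read in the same libraries, since Hedgehog genes are also expressed outside the epidermis. Of 8 dermal fibroblast markers, *Col1a1*, *Col1a2*, *Col3a1*, *Lum* and *Dcn* were listed at 0 in every library. The summed coverage of the list was 8.77, 8.21 and 8.38 in KSFM-Ca2+ and 2.44, 2.20 and 2.23 in DKSFM libraries. The lower sum rested on *Twist2* alone, which had 7.62, 7.32 and 7.08 against 0.106, 0 and 0, and *Pdgfra* was the most abundant of the list in the DKSFM libraries. *Pdgfra*, the other tested marker and also counted among the targets, was higher past the adjusted p (log2 fold change 0.95 ± 0.16, short of 2-fold), as were *Boc*, *Gli1* and *Gli2*, and the part of such cells in the result was not tested.

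The 7 melanocyte markers summed to 4.12, 3.96 and 4.60 against 17.3, 18.8 and 18.3, through *Mitf* (log2 fold change 2.31 ± 0.10), with *Dct* and *Tyr* at 0. The 5 endothelial markers summed to 2.82, 3.16 and 3.30 against 8.28, 8.29 and 7.42, through *Pecam1* (1.42 ± 0.10), with *Cdh5* and *Emcn* at 0. With these defining genes at 0, 1 gene made up most of each sum, and the other markers above 0 were low and under the filter. Among them *Pmel*, a melanocyte marker, had a mean of 0.594 in KSFM-Ca2+ and 0.343 in DKSFM cells, the opposite direction to *Mitf*. The part of melanocytes and endothelial cells in the result was not tested. The 4 Merkel cell markers summed to 5.56, 5.14 and 3.54 against 8.71, 8.69 and 8.06, led by *Sox2*, with *Atoh1* at 0 and none past both thresholds. For the 5 immune markers the sums were 10.8, 11.2 and 12.5 against 13.6, 19.0 and 20.6, led by *Cd68*, with *Cd3e* at 0. No immune marker passed both thresholds. The 5 hair follicle matrix markers summed to 7.39, 5.83 and 6.84 against 4.46, 4.40 and 4.24, all of it *Hoxc13*, which did not reach 2-fold.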

How the data were processed

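RNA-seq libraries of 3 KSFM-Ca2+ and 3 DKSFM replicates were used, grouped by the sample labels. The authors aligned reads of stranded libraries to mm10 with STAR under a strand setting, quantified them with Salmon, and deposited a signal, the read coverage per base of each gene to 1 decimal, without scaling to library size. The sources used here do not say how, or whether by strand, coverage was derived. The word "combined" marks all 3 DKSFM and 1 of the 3 KSFM-Ca2+ libraries and is likewise unexplained, so it is in part confounded with the groups. The signal is not a count, so the authors' DESeq2 was not repeated. Coverage was scaled with the trimmed mean of M values, without weights (30% and 5% trims), kept at 0.5 or more in at least 3 libraries, and tested as log2(normalized coverage + 0.1) with limma 3.58.1 (R 4.3.3) with an intensity trend, using Benjamini-Hochberg adjustment over 12409 genes. The procedure was tested on simulated data. Positions came from GENCODE M21 (24490 genes by symbol, 60 by synonym). Figures used matplotlib 3.10.9 and Python 3.11.15.

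The members and gene lists were chosen with earlier results of these data known. Named were all members, ligand and reception genes, up to 5 genes per other list and direction past both thresholds by size, the 3 genes most like *Gli1* and *Gli2*, and leading and absent markers. Alternatives were other scalings, filters, pseudocounts of 0.5 and 1, no trend, a replicate block, each library left out, libraries marked combined only, and an adjusted p of 0.05. Some listed genes are not reported here by name.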

Additional observations from a re-analysis of the deposited data

How the results depend on the processing

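All 3 higher members kept their direction in every alternative that gave them a value. A filter of 0.5 in every library removed *Boc* and *Gli1*, which gave no value there, and left 1 member higher; it also left 11 other pathway genes higher and 3 lower, and 1032 of all tested genes higher against 1636, since fewer genes were tested. With a pseudocount of 1, *Gli1* had a log2 fold change of 0.70 (adjusted p = 0.000225, against 9.9e-05 to 0.00581 over its alternatives), short of 2-fold, by the construction of that scale; *Boc* was at 1.41 and 14 other pathway genes were higher against 19. *Ptch1*, which passed no threshold, turned from -0.025 to 0.027 without DKSFM replicate 3 (range -0.054 to 0.027 over libraries left out) and to 0.011 in the libraries marked combined, where the lone KSFM-Ca2+ library was assumed to vary like the others; the cause was not tested. *Gli3*, likewise past no threshold, went from 0.17 to 0.062 without KSFM-Ca2+ replicate 2 (range 0.062 to 0.25 over libraries left out) and to 0.022 in the libraries marked combined. With each library left out, 3 members stayed higher, and the log2 fold change ranged from 1.58 to 1.80 for *Gli1*, 1.51 to 1.64 for *Gli2* and 3.0 to 3.33 for *Boc*. The replicate block gave 3 members higher and 0 lower, 1641 and 1304 of all tested genes, and changed no call of a member; same-numbered libraries did not deviate together (correlations of -0.01, 0.02 and -0.01), so the numbers do not pair them. Measured against tested genes within 10 Mb, an alternative chosen after seeing the data, *Gli2* was at 2.15, *Gli1* at 1.39, *Boc* at 3.17, *Sufu* at 0.59, *Gli3* at 0.50 (against 0.17) and *Smo* at 0.25 (against 0.49). Both other scalings kept all 27 calls among the listed genes. The 0.1 step limits *Boc*, *Gli1*, *Hhat*, *Scube2* and *Gpc3* in KSFM-Ca2+ cells, and no counting error could be given.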

Other observations

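Relatives of the *Gli* genes, chosen after their values were seen, divided by family. *Glis2*, a Gli-similar zinc finger factor, had 5.72, 5.34 and 5.90 in KSFM-Ca2+ libraries and 12.7, 13.2 and 13.6 in DKSFM libraries (log2 fold change 1.21 ± 0.07, limma adjusted p = 8.29e-07). It was above *Gli1*, *Gli2* and *Gli3* in every library. *Glis1* and *Glis3* were listed at 0 in KSFM-Ca2+ libraries and at no more than 0.2 in DKSFM libraries. Among the *Zic* genes, which share the zinc finger type, values were very low. *Zic1* was listed at 0.5, 0.2 and 0.3 and *Zic2* at 0.3, 0.1 and 0.1 in KSFM-Ca2+ libraries, and both at 0 in all DKSFM libraries. *Zic4* was listed at no more than 0.1 in any library and *Zic5* at 0. Of the *Hhip* relatives, *Hhipl1* was listed at 0 and *Hhipl2* at no more than 0.2 in any library.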
